A study of Mus musculus with 4 samples.

Results

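The 10 genes described here mark the cells that line the healthy lung: *Sftpc*, *Sftpb*, *Sftpa1* and *Napsa* for alveolar type 2 cells, *Cldn18* for the alveolar epithelium, *Hopx* for alveolar type 1 cells, *Scgb1a1* for club cells, *Foxj1* for ciliated cells, and *Trp63* and *Krt5* for basal cells. GENCODE release M21 holds 21938 protein-coding genes, of which these are 10. Each was followed as a window made of the gene body and 30 kb on each side in mm10, and the measurements were the ATAC-seq peaks listed in that window. ATAC-seq marks open chromatin, where a transposase can insert into DNA. The study made 1 library from each of 4 untreated mouse cell lines, called SMC 1, SMC 2, non-SMC 1 and non-SMC 2. SMC, short for the SCLC metastasizing cell, is NCAM hi CD44 lo/-, and non-SMC is NCAM lo CD44 hi. All 4 lines were sorted from lung tumors of *RP* mice of mixed background (C57Bl/6, Balb-c and S129), so SMC and non-SMC alike come from *Rb1*L/L, *Trp53*L/L animals in which Cre was delivered to the airways by an adenovirus with the CMV promoter. That promoter is not restricted to 1 lung cell type, and a line is a single cell culture, so the spread within a type is the spread between 2 lines. SMC lines grow in suspension and non-SMC lines adhere, and the growth form and the type cannot be told apart.

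Surfactant proteins coat the alveolar surface and are made by type 2 cells, which also renew the flat type 1 cells through which gas is exchanged. In the airways, basal cells are the stem cells of the lining, club cells secrete protective proteins, and ciliated cells move mucus. Small cell lung cancer is a neuroendocrine tumor, and its cells usually lack the products of these lineages. An open promoter is common but not sufficient for transcription, and distal open regions are often enhancers, which can act on a gene other than the nearest one.

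On the autosomes, X and Y, the SMC lists held 91057 (line 1) and 153954 (line 2) peaks, and the non-SMC lists 115837 and 128710. The genome background recovered from the lists, which scales with sequencing depth, was lowest in SMC line 1, and was 3.37 times as high in SMC line 2 and 3.26 times in non-SMC line 1, with non-SMC line 2 between them. The strength of a peak is therefore given as the percentile of its fold enrichment within its own list, where 100 is the strongest, with its pileup (reads over the summit) and -log10 q. Of the markers of each cell type, *Chga* had promoter peaks in the SMC lines alone, in both of them, as did the epithelial genes *Epcam* and *Cdh1*. *Cd44*, *Vim* and *Wwtr1* had more window peaks in both non-SMC lines than in either SMC line, as did 14.1% of all protein-coding genes. Of 6 markers of immune, endothelial and fibroblast cells, 3 (*Cd68*, *Col1a1* and *Pdgfra*) also had more peaks in both non-SMC lines, and the 6 windows together held 56 and 62 peaks in the SMC lines and 73 in each non-SMC line. *Ptprc*, the pan-leukocyte gene, had a promoter peak in non-SMC line 1 alone. The part of other cell types in the results below was not tested. With 2 libraries against 2, the smallest two-sided p of an exact permutation test is 0.333, so no test between the types was made and each difference is set against the spread between lines.

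Of the 10 lineage genes, 7 had a promoter peak in at least 1 line and 2 in all lines. The promoter was taken as 3 kb on each side of the TSS, the transcription start site. SMC lines 1 and 2 listed a peak there for 6 and 5 of the 10 genes and non-SMC lines 1 and 2 for 4 and 5, and a peak lay on the TSS itself for 1, 2, 1 and 1 of them. *Hopx* and *Foxj1* had a promoter peak in all 4 lines, which 48.7% of all protein-coding genes had. *Sftpa1*, *Scgb1a1* and *Trp63* had none in any line, as did 19.2% of all genes. None of the 10 had promoter peaks in the pair of non-SMC lines alone, a pattern of 2.45% of all genes, and none in the pair of SMC lines alone, that of 3.08%. The other 5 genes had peaks in 1 to 3 lines without a split between the types. For *Cldn18*, listed in both non-SMC lines, this rests on a weak peak in SMC line 1. That peak had a pileup of 3, a percentile of 19.7 and a -log10 q of 0.47.

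**Figure D1:**
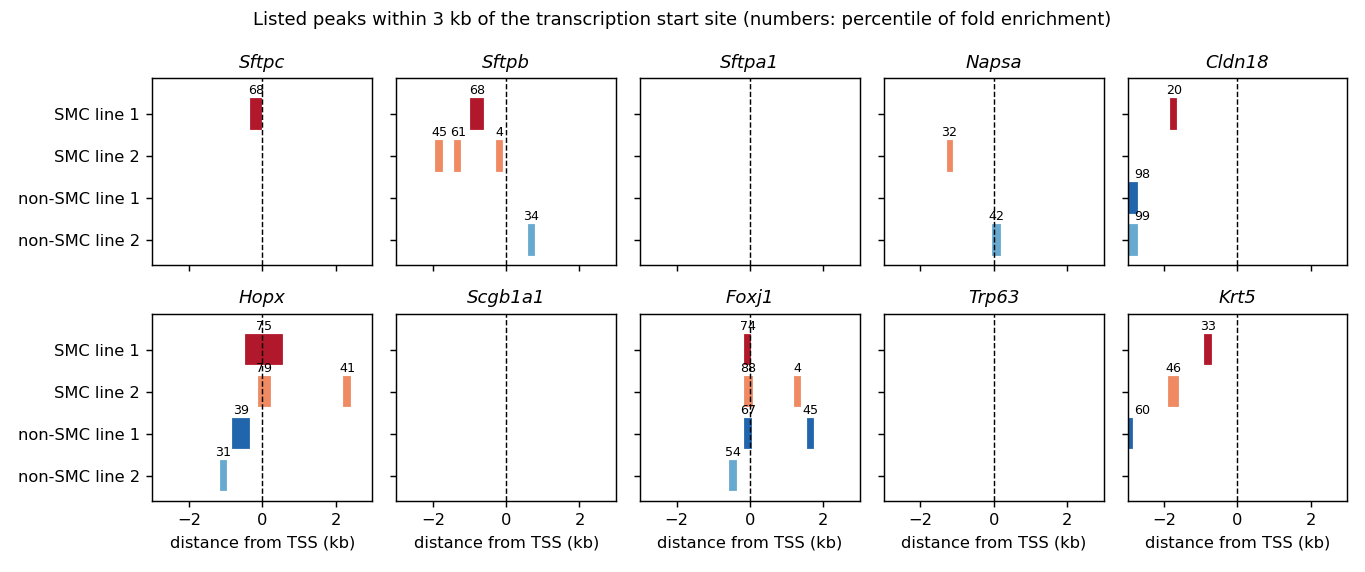
Peaks within 3 kb of the TSS of each gene, by distance from the TSS in kb, with 1 row per line and the percentile of fold enrichment above each peak. *Sftpa1*, *Scgb1a1* and *Trp63* are empty in all 4 rows, the *Cldn18* peaks of both non-SMC lines sit at the upstream edge at percentiles of 98.3 and 99.0, and *Hopx* and *Foxj1* have a peak in every row.

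The 4 genes of alveolar type 2 cells had no strong peak of their own at the promoter. *Sftpc* encodes surfactant protein C, the most specific product of the type 2 cell, and lies at chr14:70520949-70524081 on the minus strand. Its only promoter peak was in SMC line 1, 166 bp upstream of the TSS, with a pileup of 7 and a percentile of 68.0. Its window held 9 and 12 peaks in the SMC lines and 12 and 11 in the non-SMC lines (lines 1 and 2), so the types overlapped. None of these peaks had its summit in the *Sftpc* gene itself, and between 4 and 10 per line were in neighboring genes. *Bmp1*, *Lgi3*, *Reep4* and *Hr* all start in the window. The strongest region, chr14:70505504-70506410, was listed in the non-SMC lines alone, at percentiles of 87.5 and 96.8, and it lies inside *Bmp1*, which encodes a metalloprotease that trims collagen precursors. A region at the *Lgi3* promoter, 7425 bp upstream of the *Sftpc* TSS, was listed in all 4 lines at percentiles of 27.8, 59.9, 71.9 and 57.5. In SMC line 1 its -log10 q was only 0.52.

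*Sftpb*, the gene of surfactant protein B, without which alveoli collapse, lies at chr6:72304610-72314371 on the plus strand. Its window held 3 and 12 peaks in the SMC lines (lines 1 and 2) against 7 and 10 in the non-SMC lines, and the spread between the SMC lines covered both non-SMC counts. Promoter peaks were weak, with 1 in SMC line 1 at a percentile of 67.6 and 3 in SMC line 2 at 3.64 to 60.9. Non-SMC line 1 had none, and non-SMC line 2 had 1 at 34.2. The strong peaks were distal. A region 27173 bp upstream of the TSS, chr6:72277089-72277906, between genes, was open in both non-SMC lines alone, at percentiles of 79.5 and 97.9 with pileups of 28 and 36. A further 3 regions of this window had the same pattern, with the weaker of the non-SMC lines at a percentile of 13.4 to 34.0.

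*Sftpa1* encodes a surfactant lectin that binds microbes and lies at chr14:41131782-41136452 on the plus strand. It had the fewest peaks of the 10 genes over the 4 lines, with 3 in each SMC line against 2 and 1 in the non-SMC lines. *Mat1a* and *Mbl1* start in its window. Without peaks near the TSS of another gene, 2 were left in each SMC line against 2 and 1, and the types overlapped. The highest region of the *Sftpa1* window, chr14:41146086-41146344, 14435 bp downstream of the TSS and between genes, was listed in the SMC lines alone, at percentiles of 78.7 and 80.3. The pileups behind it were 6 and 10 reads.

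*Napsa* encodes the aspartic protease that helps to mature surfactant protein B, and lies at chr7:44572380-44586862 on the plus strand. Its window held 7 and 10 peaks in SMC lines 1 and 2 against 2 and 6 in non-SMC lines 1 and 2. The strong ones belonged to its neighbors. The regions at the promoters of *Pold1*, a DNA polymerase subunit, and *Nr1h2*, a nuclear receptor for oxysterols, were open in all 4 lines, at percentiles of 85.6 to 94.5 and of 74.0 to 77.8. *Napsa* itself had a promoter peak in SMC line 2 at a percentile of 32.1, and 1 over the TSS in non-SMC line 2 with a pileup of 4. Without the peaks near the TSS of another gene, 4 and 7 peaks were left in the SMC lines and 0 and 2 in the non-SMC lines. The types then still did not overlap. Without all peaks in or near other genes, an alternative chosen after seeing the data, 2 and 4 were left in the SMC lines. The non-SMC lines then had 0 and 2, and the types overlapped.

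*Cldn18* showed the clearest difference between the types. It encodes a claudin, a protein of the tight junctions that seal the alveolar epithelium, and lies at chr9:99689461-99717267 on the minus strand with no other protein-coding gene starting in its window. The window held 3 and 6 peaks in SMC lines 1 and 2, and 7 and 8 in non-SMC lines 1 and 2. Their means were 4.5 ± 2.12 in SMC and 7.5 ± 0.71 in non-SMC (SD, n = 2), and the counts of the types did not overlap. The difference in strength was larger than that in number. A region 2982 bp upstream of the TSS, chr9:99720006-99720674, was in the top 2% of both non-SMC lists, at percentiles of 98.3 and 99.0, with pileups of 57 and 23 and -log10 q of 49.6 and 22.6. Another, chr9:99701052-99701603 in intron 1, was at 96.6 and 97.6, with pileups of 51 and 24. Neither was listed in an SMC line, and the highest peaks of the SMC lines anywhere in the window were at 52.0 and 68.2, with pileups of 4 and 8. The upstream region is shown because it is the strongest region of the 10 genes that the types did not share. It carried AP-1 matches (TGANTCA) at -84 to -78 and at -25 to -19 from the summit, and an NFI half-site (TTGGCA, on the minus strand) at -98 to -93. The 201 bases centred on its summit, chr9:99720149-99720349 on the plus strand of GRCm38 (RefSeq), are given with the matches in capitals.
Cldn18 upstream region: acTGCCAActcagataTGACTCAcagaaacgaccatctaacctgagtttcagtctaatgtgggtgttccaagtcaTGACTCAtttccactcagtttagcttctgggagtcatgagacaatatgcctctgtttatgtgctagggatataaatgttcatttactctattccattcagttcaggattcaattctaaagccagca

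*Hopx*, the gene of a small homeodomain protein that marks type 1 cells, had a promoter peak in all 4 lines, at places that differed between the types. It lies at chr5:77086988-77115121 on the minus strand. Both SMC lines had a peak over the TSS, at percentiles of 74.6 and 78.9 with pileups of 7 and 11. The non-SMC lines had none on the TSS, and their promoter peaks lay 626 and 1085 bp upstream at percentiles of 38.6 and 31.2. *Hopx* also has internal transcript starts, 19844 and 19868 bp downstream of the first, and these fall in chr5:77094607-77095373, which was open in all 4 lines at percentiles of 79.6, 84.1, 79.8 and 66.6. The window held 5 and 10 peaks in the SMC lines against 9 and 11 in the non-SMC lines, and the types overlapped. A region 40019 bp downstream of the TSS and beyond the gene's end was listed in both non-SMC lines alone, at percentiles of 92.4 and 96.0 with pileups of 45 and 23. It is shown as the strongest non-SMC-only region of *Hopx*, at chr5:77075002-77075202 on the plus strand, and held none of the 7 motifs searched.
Hopx downstream region: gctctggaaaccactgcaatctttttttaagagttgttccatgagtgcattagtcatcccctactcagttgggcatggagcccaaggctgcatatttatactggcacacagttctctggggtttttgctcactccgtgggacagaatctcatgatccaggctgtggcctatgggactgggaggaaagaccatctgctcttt

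*Scgb1a1* encodes the secretoglobin of club cells and lies at chr19:9083636-9087958 on the minus strand. Its window had the largest difference in number between the types, with 5 peaks in each SMC line against 12 and 13 in the non-SMC lines (5 ± 0 and 12.5 ± 0.71, SD, n = 2). Over all protein-coding genes, both non-SMC lines lay above both SMC lines in 14.1%, and among the 10 genes this held for *Scgb1a1* and *Cldn18*. No peak was listed in the gene's body or promoter in any line. Much of the difference lay in *Ahnak*, which encodes a very large scaffold protein and overlaps the window. *Ahnak* held 2 of the 5 and 3 of the 5 peaks of the SMC lines, and 8 of the 12 and 6 of the 13 of the non-SMC lines. The local background there was also raised, to a median of 4.36 and 3.30 times the genome background in the non-SMC lines, against 2.14 and 1.65 times in the SMC lines, and its part in the peak counts was not tested. Of the 5 regions that only the non-SMC lines listed, 4 lay in *Ahnak*, and the fifth, chr19:9106620-9107330, lay 19029 bp upstream of *Scgb1a1* between genes at percentiles of 89.4 and 68.8. Without peaks in or near other genes, 2 and 1 were left in the SMC lines and 4 and 7 in the non-SMC lines. Both regions that were open in all 4 lines were in *Ahnak* too, and here the SMC lines ranked higher, at 80.4 and 93.2 against 51.5 and 57.2 for one, and at 92.2 and 93.4 against 62.7 and 23.2 for the other.

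**Figure D2:**
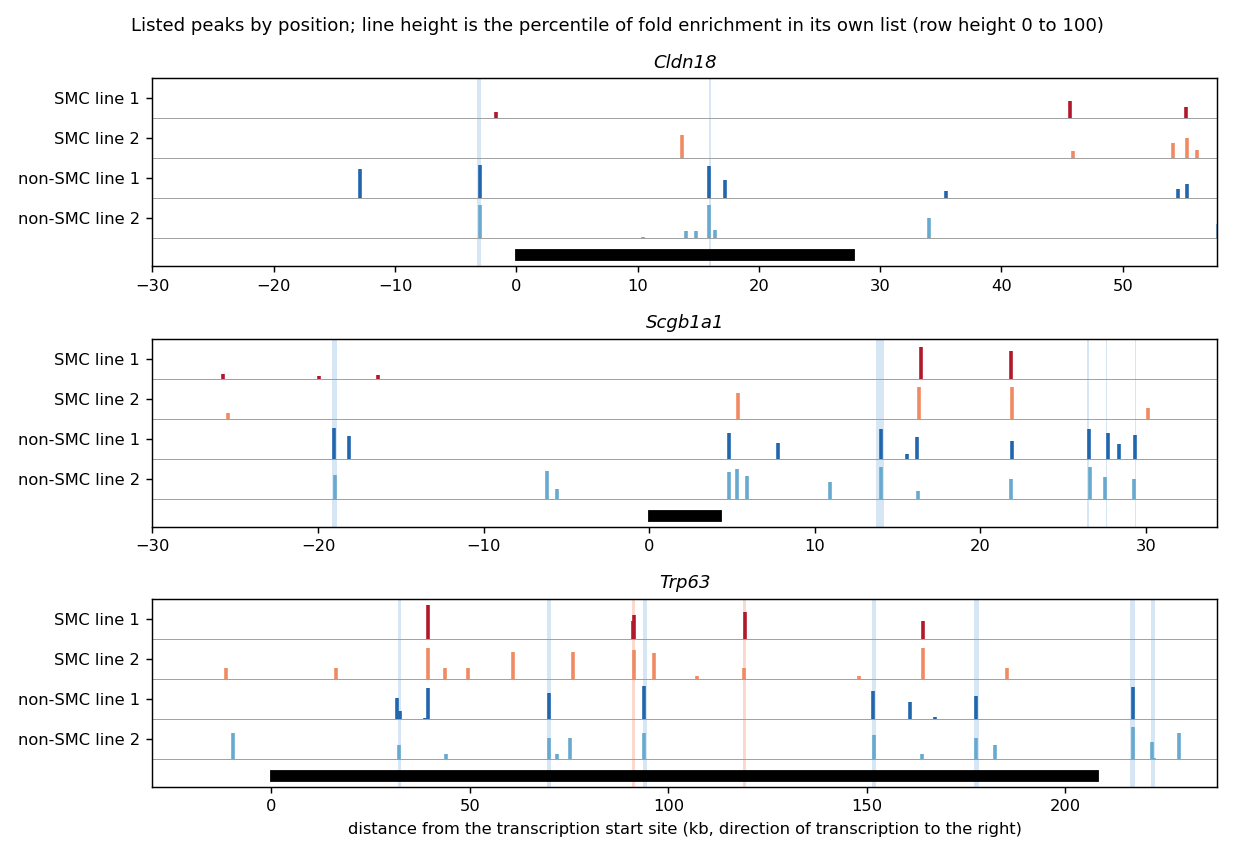
Peaks in the windows of *Cldn18*, *Scgb1a1* and *Trp63*, with 1 row per line, by distance of the summit from the TSS in kb and with the percentile of fold enrichment (0 to 100) as the height of each line. The black bar is the gene body, blue bands are regions of both non-SMC lines alone and red bands those of both SMC lines alone. *Cldn18* has 2 tall pairs of lines in the non-SMC rows, *Scgb1a1* has no line over its gene body, and *Trp63* has bands of both colors along its length.

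*Foxj1*, the forkhead factor that switches on the motile cilia program, was the only one of the 4 airway genes with a promoter peak in all 4 lines. It lies at chr11:116330704-116335399 on the minus strand. A peak within 77 bp of the TSS was listed in SMC line 1 (percentile 74.5, pileup 6), SMC line 2 (88.2, pileup 31) and non-SMC line 1 (67.3, pileup 14). In non-SMC line 2 the promoter peak lay 424 bp upstream, at a percentile of 54.1 with a pileup of 8. The window held 5 peaks in SMC line 1, 16 in SMC line 2 and 4 in each non-SMC line. The types did not overlap, yet 14 of the 16 peaks of SMC line 2 were in regions listed in no other line, and the median percentile of its peaks was 18.6. With pileups scaled to the shallowest library, the counts were 5 and 4 against 4 and 4. No region of the *Foxj1* window was listed in both lines of one type and in neither line of the other.

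*Trp63*, whose product p63 maintains basal cells, is the longest of the genes, at chr16:25683763-25892102 on the plus strand. Its window held 5 and 14 peaks in the SMC lines and 12 and 15 in the non-SMC lines, so the types overlapped. No peak lay within 3 kb of the gene's TSS in any line. Both types had regions of their own inside the gene, 2 in SMC and 5 in non-SMC, and 2 more of non-SMC lay downstream of it. Basal cells use an internal start that gives the shorter ΔN transcripts, 118153 bp downstream of the first TSS. The SMC-only region chr16:25802758-25803088 lay next to it, with summits 1094 and 891 bp past that start, percentiles of 78.7 and 32.1 and a pileup of 6 in both lines. No non-SMC peak was listed within 3 kb of the internal start. The other SMC-only region, 91288 bp from the TSS in intron 3, was at 70.0 and 83.4. Among the non-SMC regions, chr16:25777483-25778200 in intron 3 was at percentiles of 95.9 and 76.6, and chr16:25900264-25901121, downstream of the gene, at 94.1 and 93.3 with pileups of 57 and 19. The highest *Trp63* peak of all was shared across types. The region chr16:25722903-25723668 in intron 1 was listed at percentiles of 98.7 and 89.2 in the SMC lines and 91.3 in non-SMC line 1, with no peak in the list of non-SMC line 2.

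The other basal gene, *Krt5*, encodes a keratin of the basal cell skeleton, at chr15:101707070-101712898 on the minus strand. Its window held 4 and 5 peaks in the SMC lines against 5 and 6 in the non-SMC lines. The promoter held a peak 735 bp upstream of the TSS in SMC line 1 (percentile 33.4, pileup 4) and one 1708 bp upstream in SMC line 2 (45.5, pileup 9). The highest percentile in any line was 59.7, for a peak with its summit 3172 bp upstream in non-SMC line 1 that reached into the promoter, and none of the regions was shared by all lines or by both lines of one type alone.

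**Figure D3:**
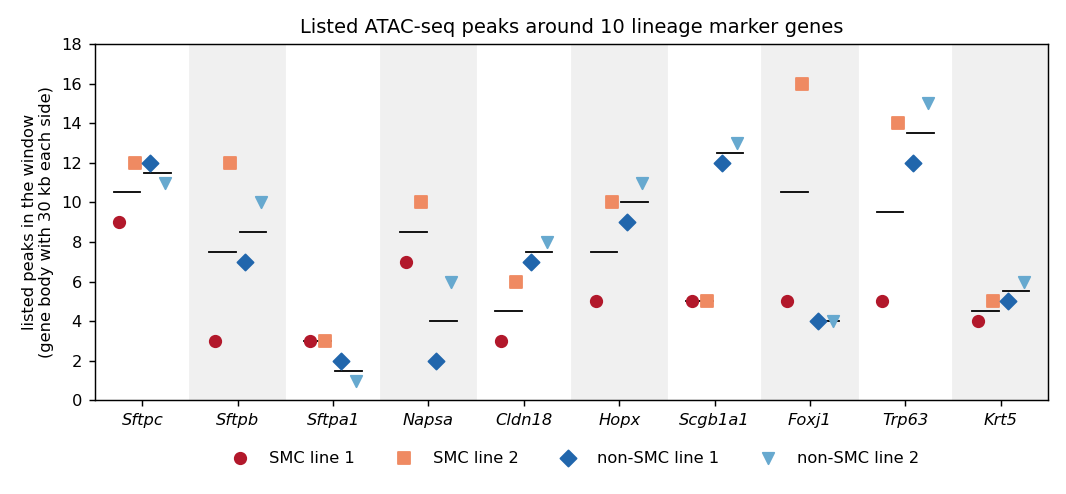
Number of listed peaks in the window of each gene (y axis), with 1 point per line and a black bar at the mean of each type. The non-SMC points lie above the SMC points for *Cldn18* and *Scgb1a1*, the SMC points lie above for *Sftpa1*, *Napsa* and *Foxj1*, and the points overlap for the other 5 genes.

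Across the 10 genes the types hardly differed in the number of peaks. The windows held 49 and 93 peaks in the SMC lines against 72 and 85 in the non-SMC lines, a log2 ratio of SMC over non-SMC of -0.14. The difference of 7.5 peaks between the means was smaller than the SD of 31.1 between the SMC lines, and the SMC line had fewer peaks in line pair 1 and more in line pair 2. Per 100000 listed peaks, which sets aside the length of a list, the values were 53.8, 60.4, 62.2 and 66.0, lower in both SMC lines (log2 ratio -0.17). *Sftpa1*, *Napsa* and *Foxj1* had higher counts in both SMC lines, 3 of the 10 genes beside 13.5% of all protein-coding genes. These counts were small, and each of the 3 stayed without overlap in 3 of the 8 other settings that kept all lines, against 8 for *Cldn18* and 7 for *Scgb1a1*.

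Peaks at or above a -log10 q of 5 numbered 4 and 10 in the SMC lines and 38 and 14 in the non-SMC lines. Over the whole lists, 14.3% and 17.1% of the SMC peaks and 38.0% and 19.5% of the non-SMC peaks passed that value, and the part of depth was not tested. Peaks in the top 10% of their own list numbered 3 and 4 in these windows in the SMC lines (6.12% and 4.30%) and 6 and 11 in the non-SMC lines (8.33% and 12.9%). A rank within a list depends on how many weak peaks the list holds, and the lists differ in length and depth.

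Joined where they overlapped by at least 1 base, the peaks formed 214 regions in the 10 windows, of which 161 were listed in 1 line only. Regions that both non-SMC lines alone listed numbered 23, or 10.7%, beside 7.2% of the regions around all protein-coding genes. Regions of both SMC lines alone numbered 6, or 2.80%, beside 4.27%, and regions of all 4 lines numbered 6, also 2.80%, beside 4.73%. The shares were not tested, because regions of 1 window are not independent and the types have 2 lines each. *Trp63* held 7 of the 23 non-SMC regions, *Scgb1a1* 5, *Sftpb* 4, *Sftpc* 3, and *Cldn18* and *Hopx* 2 each. *Napsa* and *Trp63* held 2 SMC regions each, and *Hopx* and *Sftpa1* 1 each. Of the 23 non-SMC regions, 6 had their summit in the marker gene itself, 8 in another gene and 9 between genes, and 1 was within 3 kb of the marker's TSS.

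**Figure D4:**
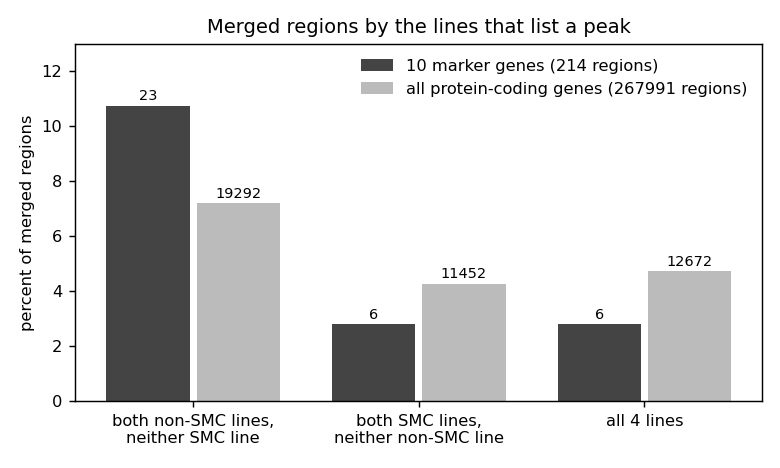
Percent of merged regions (y axis) listed in both non-SMC lines alone, both SMC lines alone or all 4 lines, with the number of regions above each bar, for the windows of the 10 genes (dark) and of all protein-coding genes (light). The dark bar is the higher of the pair for non-SMC (10.7% beside 7.2%) and the lower for SMC and for all 4 lines.

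Among the 29 regions of these 2 kinds, the highest percentiles were in non-SMC. In 8 of the 23, the -log10 q was at least 5 in both non-SMC lines, and 7 had a mean percentile of at least 90. None of the 6 SMC regions reached either mark, and their mean percentiles ran from 21.3 to 79.5. Neither mark was counted for the regions around all protein-coding genes, so these counts have no share to be read against. Over the whole lists, a -log10 q of 5 was passed by 14.3% and 17.1% of SMC peaks and by 38.0% and 19.5% of non-SMC peaks. The median percentile of the non-SMC regions was 82.1 in line 1 and 70.7 in line 2, beside 72.8 and 76.6 around all protein-coding genes. That of the SMC regions was 63.7 and 64.7, beside 70.0 and 78.8. Around all genes, then, the 2 kinds of region had like percentiles, and the difference at the lineage genes rests on 6 SMC regions. The weakest non-SMC regions were near the limit of detection, with 4 of the 23 at a mean percentile under 50. With pileups as low as 3 reads listed in the shallow libraries, the absence of a weak peak from a list does not show that the site was closed.

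**Figure D5:**
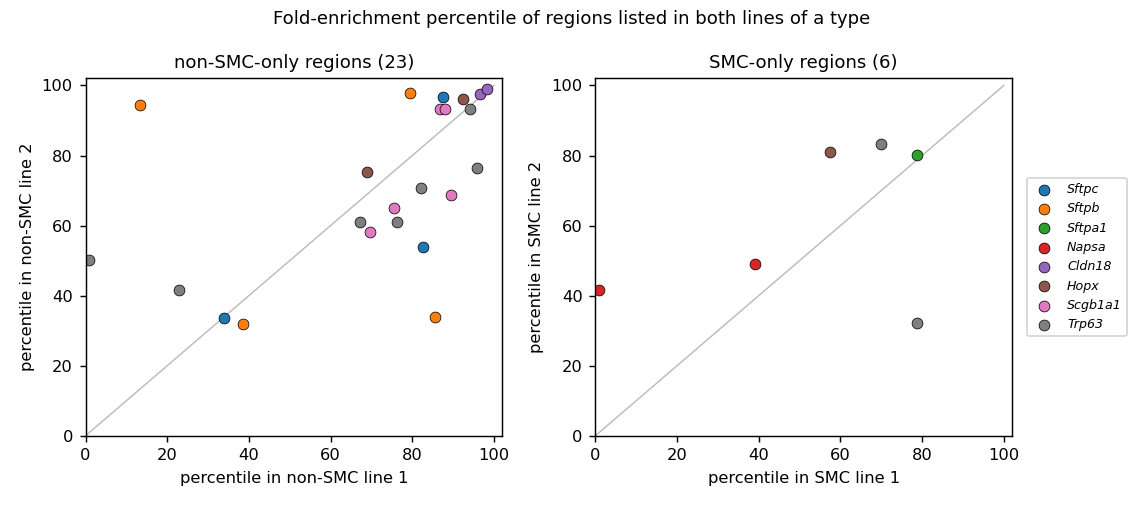
Percentile of fold enrichment of each region in line 1 (x axis) and line 2 (y axis), for the 23 non-SMC-only regions (left) and the 6 SMC-only regions (right), colored by gene, with a gray line where both are equal. The *Cldn18* regions sit in the upper right corner of the left panel, and no SMC-only region lies above 90 on either axis.

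The sequence under the summits was searched on both strands, within 100 bp, for AP-1 (TGANTCA), TEAD (GGAATG), NKX2 (CAAGTG), FOX (TGTTTAC), CEBP (TTGCNNAA), NFI (TTGGCA) and the p53 family core (CATG, any 6 bases, CATG). AP-1, the dimer of FOS and JUN proteins, was the common one. It was present in 13 of the 23 non-SMC regions, beside 55.1% of the non-SMC-only regions of the whole genome, so the lineage genes were close to the other regions of that pattern. None of the 6 SMC regions had it, beside 6.55%, and 14.6% of all 357570 regions did. *Trp63* contributed 4 of the 13, *Scgb1a1* 3, *Cldn18* and *Sftpb* 2 each, and *Hopx* and *Sftpc* 1 each. The NKX2 letters, the core recognized by the lung regulator NKX2-1, were in 2 of the 23 non-SMC and 3 of the 6 SMC regions, beside 13.6% and 15.0%. TEAD was in 3 of the 23 and 2 of the 6, beside 19.3% and 9.39%. CEBP was in 2 and 1, beside 11.6% and 8.29%, and NFI also in 2 and 1, beside 16.2% and 16.9%. FOX was in 1 and 0, beside 3.29% and 9.41%. The p53 family core, to which p63 binds, was in none of the 214 regions, beside 0.924% of all.

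The strongest non-SMC-only regions of *Trp63*, *Sftpc*, *Scgb1a1* and *Sftpb* are shown in the same way, 201 bases of the plus strand of GRCm38 from RefSeq with motif matches in capitals, because they are the regions that set the non-SMC lines apart at these genes. They lie at chr16:25900778-25900978 (217115 bp from the *Trp63* TSS, a CEBP and a TEAD match), chr14:70505845-70506045 (inside *Bmp1*, no match), chr19:9073827-9074027 (inside *Ahnak*, 1 AP-1 match) and chr6:72277337-72277537 (upstream of *Sftpb*, an AP-1 and an NKX2 match that do not overlap).
Trp63 downstream region: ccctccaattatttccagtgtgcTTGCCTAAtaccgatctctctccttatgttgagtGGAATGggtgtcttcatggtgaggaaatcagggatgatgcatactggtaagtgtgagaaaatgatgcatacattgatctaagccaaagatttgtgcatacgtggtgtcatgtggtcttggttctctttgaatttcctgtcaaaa
Sftpc window region: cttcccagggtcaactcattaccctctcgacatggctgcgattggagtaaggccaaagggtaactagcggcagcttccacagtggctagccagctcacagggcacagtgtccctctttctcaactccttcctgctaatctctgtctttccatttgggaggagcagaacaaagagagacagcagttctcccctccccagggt
Scgb1a1 window region: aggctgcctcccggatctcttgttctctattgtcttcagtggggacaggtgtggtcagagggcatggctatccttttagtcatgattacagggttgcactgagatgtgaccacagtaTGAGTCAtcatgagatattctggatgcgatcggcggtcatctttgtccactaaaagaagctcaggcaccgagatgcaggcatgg
Sftpb upstream region: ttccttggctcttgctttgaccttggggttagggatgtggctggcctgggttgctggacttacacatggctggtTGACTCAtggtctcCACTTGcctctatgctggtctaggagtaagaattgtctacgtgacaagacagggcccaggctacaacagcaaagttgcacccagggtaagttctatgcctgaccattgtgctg

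A wider set of 42 genes of the same lineages, in 6 lists, was read at the promoter. Of these, 22 had a promoter peak in all 4 lines, beside 48.7% of all protein-coding genes, 4 had none (*Pdpn*, *Scgb3a2*, *Aldh1a1* and *Krt14*), beside 19.2%, and 14 had a mixed pattern. The first share was close to that of all genes. All 4 lines had a promoter peak for 6 of 8 lung regulators, 5 of 7 ciliated genes, 4 of 7 type 2 genes, 4 of 7 type 1 genes, 2 of 6 club and secretory genes and 1 of 7 basal genes. *Klf5*, a Krüppel-like factor of epithelia, and *Elf3*, an epithelial ETS factor, led the regulators with mean percentiles of 96.6 and 88.5. *Etv5*, an ETS factor that maintains type 2 cells, reached 98.2, followed in that list by *Lpcat1*, a surfactant lipid enzyme, at 83.5. *Rfx3*, a regulator of ciliary genes, reached 95.0 and *Ccdc39*, a protein of the ciliary axoneme, 83.8. *Snai2*, a zinc finger repressor of basal cells, reached 94.0, and *Aqp3*, a water channel, had a peak in SMC line 1 only. The type 1 list was led by *Rtkn2* at 88.9 and *Cav1*, the coat protein of caveolae, at 83.4, and the club list by the mucin *Muc5b* at 80.7 and *Cyp2f2*, a cytochrome P450, at 73.5.

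A promoter peak in both lines of one type alone was found for 2 of the 42 genes, 1 in each direction, beside 2.45% (non-SMC) and 3.08% (SMC) of all genes. *Cyp2f2* had a promoter peak in both non-SMC lines alone, at percentiles of 71.2 and 75.8. *Itgb4*, an integrin of the basal cell's anchoring junction, had one in both SMC lines alone, but at 5.05 and 3.45. Window counts were higher in both non-SMC lines for 5 of the 42 genes (*Ager*, *Pdpn*, *Clic5*, *Krt14* and *Foxa1*), beside 14.1% of all genes, and in both SMC lines for 6 (*Lpcat1*, *Etv5*, *Muc5b*, *Tppp3*, *Nkx2-1* and *Foxa2*), beside 13.5%. Both shares were close to those of all genes. *Nkx2-1*, the regulator of lung identity that drives the surfactant genes, was singled out after its values were seen. Its window held 5 and 14 peaks in the SMC lines and 1 in each non-SMC line, and its promoter held 3 and 5 against 0 and 1.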

How the data were processed

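ATAC-seq was measured in 4 libraries, 1 per cell line. The authors mapped reads to mm10 with Bowtie2 2.3.4, removed duplicates and called peaks with MACS2 2.1.1 in each library separately. The peak calling settings are not given in the sources used here, so the lists may hold weak peaks. Each deposited fold value has 1 added to both terms. It is the summit pileup plus 1, divided by the local background of the same library plus 1. All percentiles rank this value and not the plain quotient. For the *Cldn18* promoter peak of SMC line 1, with a pileup of 3, the fold was 2.75 and the pileup over the genome background was 6.58. The authors deposited -log10 p-values and q-values with the fold values, and a score that was not used. Pileup and background were recovered from fold enrichment and p (whole pileups within 0.02 for 100% of peaks). The steps were tested on simulated data and against bedtools 2.31.1.

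Peaks were matched to protein-coding genes of GENCODE M21 by overlap of at least 1 base. A member "did not overlap" where both lines of a type exceeded both of the other. All 10 members are named, with the highest peak per line and up to 3 regions per pattern. The members and lists were chosen with earlier results of these data known. The RefSeq promoter table held 5 of the 10 genes (*Sftpb*, *Sftpa1*, *Cldn18*, *Hopx* and *Krt5*). The lines of 1 number form a pair because the labels call them paired, and with 2 pairs no check of the pairing was made. Each library counts as 1 sample, pileups are reads rather than molecules, and intervals were not given. Python 3.11.15, numpy 2.4.6, pandas 2.3.3, scipy 1.17.1 and matplotlib 3.10.9 were used.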

Additional observations from a re-analysis of the deposited data

Results flagged for a closer look

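The line pairs moved in opposite directions for the number of peaks in all 10 windows, which was -23 (SMC minus non-SMC) in pair 1 and 8 in pair 2. The same held for *Sftpc*, with -3 in pair 1 and 1 in pair 2, and for *Sftpb*, with -4 and 2. These differences between pairs were not tested. SMC line 1 had the lowest genome background and SMC line 2 the highest, and the part of depth in the opposite directions was not tested. With pileups scaled to the shallowest library, the totals were 49 and 35 in the SMC lines and 51 and 73 in the non-SMC lines, so both pairs then had fewer peaks in SMC.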

How the results depend on the processing

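In the 10 windows the log2 ratio of SMC over non-SMC peaks (-0.14) was -1.89 with a -log10 q of at least 5, and ranged from -0.68 to 0.24 with 1 line left out. The ratio per 100000 listed peaks (-0.17) was -1.05 with that q, -0.29 with lists cut to equal length, -0.41 with pileups scaled to the shallowest library, -0.49 with flanks of 10 kb, -0.36 in gene bodies alone, and -0.28 without peaks in or near other genes, a setting chosen after seeing the data. As a mean within line pairs (the block of lines of 1 number), the ratios were -0.21 and -0.17.

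SMC-only regions (6) numbered 1 with the stricter q, 3 in gene bodies, 18 with flanks of 100 kb, 3 with a reciprocal overlap of 50%, and 9 to 71 with 1 line left out. Non-SMC-only regions (23) numbered 10 with that q, 13 with flanks of 10 kb, 6 in gene bodies, 47 with flanks of 100 kb, 15 without other genes, 14 with reciprocal overlap, and 25 to 70 with 1 line left out. Leaving out a line of the pattern's own type gives the high ends, since then 1 line is enough. Regions of all 4 lines (6) numbered 1 with that q, 2 with flanks of 10 kb, 1 in gene bodies, 21 with flanks of 100 kb, 3 without peaks near another TSS, 1 without other genes, and 8 to 11 with 1 line left out.

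Members with a promoter peak in all 4 lines (2) numbered 0 with the stricter q and 1 (*Foxj1*) with scaled pileups, and 2 to 3 with 1 line left out. With that q, 1 member, *Cldn18*, had a promoter peak in both non-SMC lines alone (0 in the report), and 0 to 1 with 1 line left out. With the starts of every transcript, 1 member, *Trp63*, had one in both SMC lines alone (0 in the report), through its internal start, and 0 to 1 with 1 line left out. The *Foxj1* difference of 6.5 peaks turned to -0.5 with the stricter q and to -0.5 in the gene body. The causes were not tested. Depth limits weak peaks: pileups of 3 to 5 reads were the lowest listed.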
